A study of Mus musculus with 287 samples.

Results

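Fezf2-positive and Tbr1-only neurons are 2 groups of excitatory neurons from cortical clones grown in mouse organoids, told apart by the RNA of 2 transcription factors of deep cortical layers. The Fezf2-positive group has 93 cells and the Tbr1-only group 23, which together make 40.4% of the libraries in the series, each made from 1 cell. Members were chosen among cells with a clone label in which 1000 genes or more had an exon count (86.97% of labelled cells). A member had at least 50 CPM of Neurod6 (CPM, exon counts per 1e6 exon counts of the cell), which marks young excitatory neurons, and 73.7% of those cells met this. A Fezf2-positive cell had at least 20 CPM of Fezf2, whatever its Tbr1. A Tbr1-only cell had at least 20 CPM of Tbr1 and under 5 CPM of Fezf2. These are groups set by thresholds on measured values and not clusters, and the remaining 66 Neurod6-positive cells belong to neither.

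All cells came from cerebral organoids grown from mouse embryonic stem cells of the genotype MADM-11GT/TG;Emx1-CreER+/-. MADM (mosaic analysis with double markers) can make the daughters of a dividing progenitor green and red, and here it needs Cre made from the Emx1 gene of dorsal forebrain progenitors and switched on by tamoxifen. Every organoid received 60 nM 4-hydroxytamoxifen on day 13 and was collected on day 20, when single green or red cells of a clone were drawn into a pipette and sequenced with Smart-seq3. The labels give each cell a clone, a clone type (SN or N, not spelled out), a colour and 1 of 3 plates, and name no organoid or culture, so p-values measure the spread between clones, some of which may share an organoid.

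Fezf2 encodes a zinc finger factor that directs deep-layer neurons to project below the cortex, and is best known in layer 5 neurons that reach the spinal cord. Tbr1 encodes a T-box factor of early-born neurons, above all those of layer 6 that project to the thalamus and those of the subplate, where it holds back the Fezf2 programme. Bcl11b (Ctip2) acts downstream of Fezf2. Young neurons carry several of these factors at once before they sort into layers, and radial glia, which also divide to make neurons, can carry Fezf2.

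The levels of the 3 genes of the rule are a description, since members were chosen by them. Fezf2 ran from 23.4 to 551 CPM over the 93 Fezf2-positive cells, with a median of 69.3 CPM. In the Tbr1-only cells it ran from 0 to 4.54 CPM, and 5 of the 23 had a count. Tbr1 ran from 20.1 to 623 CPM in the Tbr1-only cells, with a median of 55.2 CPM. In the Fezf2-positive cells Tbr1 ran from 0 to 529 CPM, with a median of 29.4 CPM. Most Fezf2-positive cells therefore carried both genes: 83 of 93 had a Tbr1 count, 55 (59.1%) reached 20 CPM and 23 stayed under 5 CPM. Neurod6 had close medians, 390 CPM in the Fezf2-positive cells (56.4 to 3747) and 374 CPM in the Tbr1-only cells (67.7 to 6912).

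**Figure D1:**
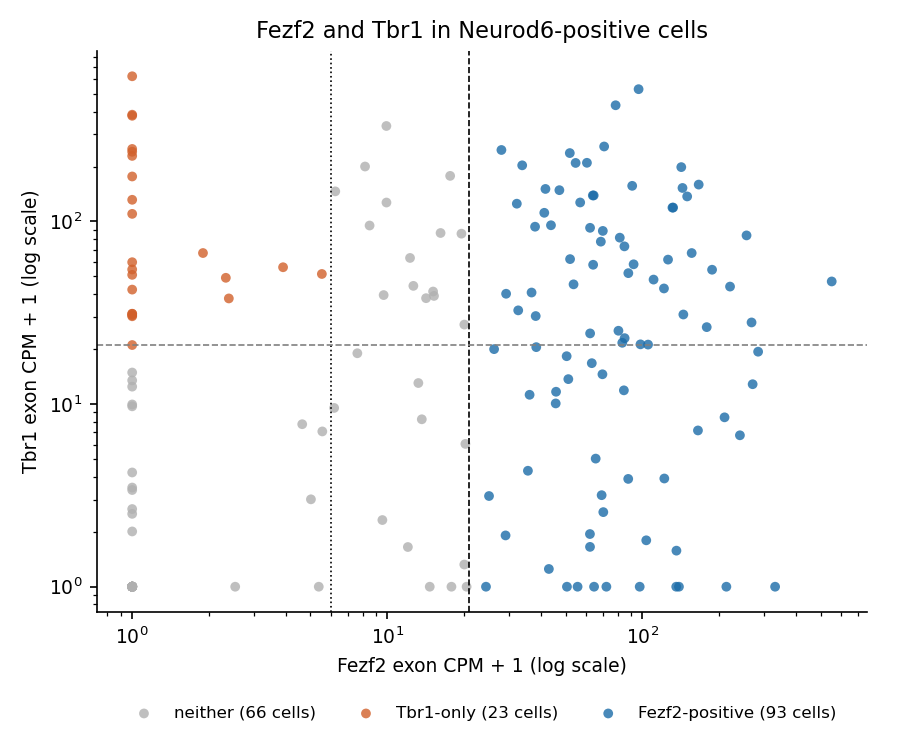
Each point is 1 Neurod6-positive cell, with Fezf2 on the horizontal and Tbr1 on the vertical axis (exon CPM + 1, log scales). The vertical dashed and dotted lines are 20 and 5 CPM of Fezf2, the horizontal dashed line is 20 CPM of Tbr1, and the Fezf2-positive cells (blue) cover the whole range of Tbr1 from 0 to 529 CPM.

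The thresholds cut through a continuum. The lowest Fezf2-positive cell had 23.4 CPM of Fezf2, and the next Neurod6-positive cell below the limit had 19.5 CPM. The highest Tbr1-only cell had 4.54 CPM of Fezf2, and the next cell that had enough Tbr1 had 5.25 CPM. The lowest Tbr1-only cell had 20.1 CPM of Tbr1, and the next cell with little Fezf2 had 13.9 CPM. For Neurod6 the lowest member had 56.4 CPM and the highest kept cell under the limit 49.0 CPM. Of the 66 cells in neither group, 26 had Fezf2 between 5 and 20 CPM, 15 of them with Tbr1 of at least 20 CPM, and 40 were low in both genes.

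Intron counts, which read unspliced RNA and were not used by the rule, showed the same split for Fezf2. Fezf2 had an intron count in 52 of 93 Fezf2-positive cells (55.9%), in 1 of 23 Tbr1-only cells (4.35%) and in 4 of the 66 cells in neither group. Summed over the cells of a clone, Fezf2 introns stood at 9.56 ± 15.8 intron CPM (SD, n = 46 clones) in the Fezf2-positive group and at 0.0986 ± 0.382 (n = 15) in the Tbr1-only group, where a single clone had a count. Tbr1 introns were counted in 25 Fezf2-positive cells (26.9%) and 6 Tbr1-only cells (26.1%), nearly the same share of cells. Their level per clone sum was 8.88 ± 22.8 intron CPM in the Fezf2-positive group (17 of 46 sums with a count). In the Tbr1-only group it was 21.7 ± 54.8 (4 of 15), with medians of 0 in both. The intron totals of the sums had medians of 2.98e+06 in the Fezf2-positive and 601231 in the Tbr1-only group. For both genes, the shares of cells with a count were thus not read at equal depth. No test result is given for the introns of Fezf2 and Tbr1, because introns and exons come from the same genes and cells.

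The groups differed in depth and in the number of genes seen, which bears on every gene comparison that follows. Exon counts per cell had a median of 3305085 in the Fezf2-positive cells (24826 to 13040432) and of 1088241 in the Tbr1-only cells (18255 to 4771635), while the cells in neither group had a median of 1519574.5. As means per clone, log10 of the exon count was 6.33 ± 0.475 (SD, n = 47 clones) against 5.74 ± 0.793 (n = 19), a difference of 0.589 (two-sided permutation test, p = 0.00047, adjusted over 4 measures 0.00094). After thinning each cell to 100000 counts, the Fezf2-positive group still had more genes, 6122 ± 1794 (n = 46) against 4130 ± 1498 (n = 15), a difference of 1992 (permutation p = 0.00029, adjusted 0.00094). This held in all 10 clones in which both groups could be thinned, with a mean difference of 2165 genes (exact sign-flip permutation test, p = 0.00195, adjusted 0.00781).

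Depth is not independent of the rule, since a shallow cell can miss Fezf2. In the shallowest Tbr1-only cell 1 count was worth 54.8 CPM. Of the 18 Tbr1-only cells with no Fezf2 count, 6 were so shallow that 0 counts allow 20 CPM or more (taking 3 counts as the limit), and the median limit was 3.13 CPM. Among cells with at least 200000 exon counts, where 1 count is at most 5 CPM, the Fezf2-positive cells were deeper by 0.278 in log10 (permutation adjusted p = 0.0254) and had 1994 more genes after thinning (adjusted p = 0.00156). The gap in genes was 2226 on plate 1 (permutation p = 0.00556), 19.3 on plate 2 (p = 0.974, 3 Tbr1-only clones) and 2623 on plate 3 (p = 0.0258). The intron share of counts was 31.1% ± 12.2 against 28.5% ± 9.55 (permutation adjusted p = 0.561) and the mitochondrial share 5.97% ± 3.67 against 6.51% ± 4.17 (adjusted p = 0.606), so over all plates neither measure of RNA quality differed beyond the spread between clones. On plates 1, 2 and 3 the mitochondrial share differed by -0.175, -4.10 and 0.777 points (permutation p = 0.912, 0.0374 and 0.7005).

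**Figure D2:**
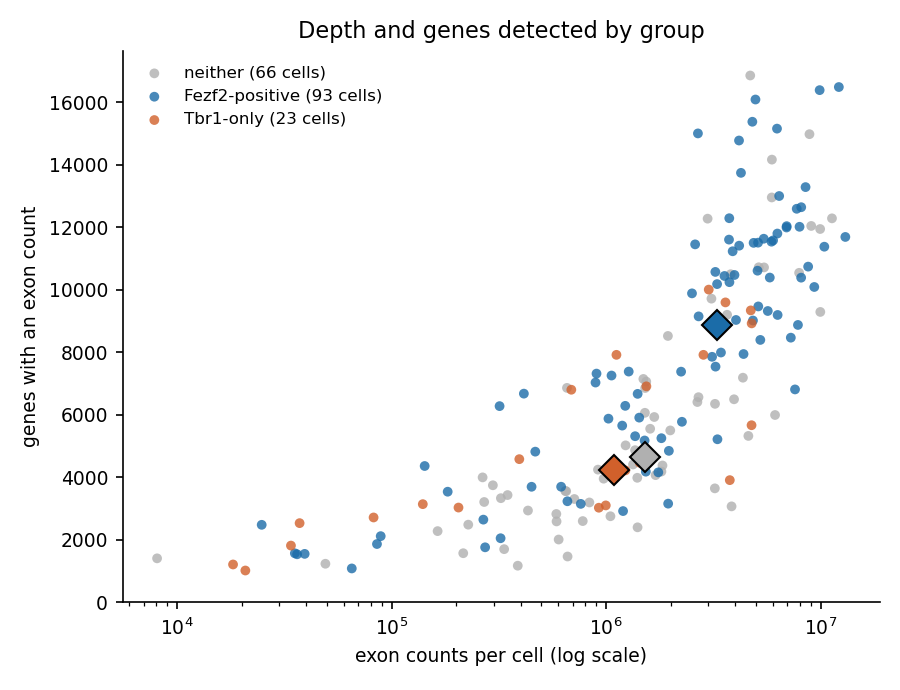
Exon counts per cell (horizontal, log scale) and genes with an exon count (vertical) for each Neurod6-positive cell, with diamonds at the group medians. The Fezf2-positive median lies at 3305085 counts and 8874 genes, the Tbr1-only median at 1088241 counts and 4223 genes.

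Every clone with 2 or more members held a Fezf2-positive cell. Of the 66 clones with a Neurod6-positive cell, 52 had a member, 47 had a Fezf2-positive cell and 19 had a Tbr1-only cell. Among the 31 clones with 2 or more members, 14 held both groups, 17 held Fezf2-positive cells alone and 0 held Tbr1-only cells alone. By type, 7 of 18 such SN clones and 7 of 13 such N clones held both. No clone had more than 2 Tbr1-only cells, and of the 14 mixed clones 8 had more Fezf2-positive than Tbr1-only cells and 5 had equal numbers. These are counts without a test, and the groups are of unequal size, with 93 and 23 cells.

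**Figure D3:**
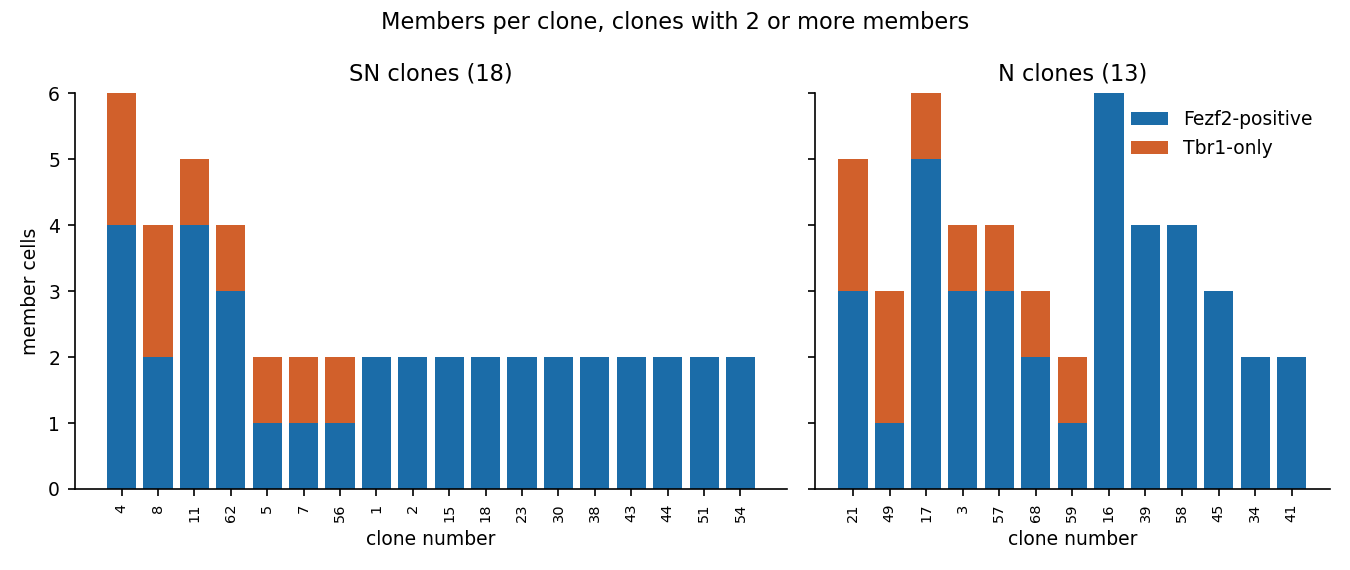
Member cells per clone (bars, clone numbers on the horizontal axis) in the 31 clones with 2 or more members, SN on the left and N on the right. Orange stands on blue in 14 clones and no bar is orange alone.

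Both groups were found on the green and on the red side of clones. In 11 of the 14 mixed clones both groups were found among cells of 1 colour, and in 3 the colours split them. The members of 4 of the 11 were all of 1 colour, so 3 of the 10 clones that could be split were. In the 18 clones with members of both colours, Fezf2-positive cells made up 84.3% ± 23.9 of the green and 71.3% ± 41.9 of the red members (SD), and the share was higher in green in 5 clones, higher in red in 3 and equal in 10 (sign-flip permutation test, p = 0.312).

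Shares of the groups did not differ between clone types beyond the spread between clones. Fezf2-positive cells were 51.1% of all Neurod6-positive cells (95% Wilson interval 43.9 to 58.3, which covers counting error only) and Tbr1-only cells 12.6% (8.57 to 18.2). Per clone, Fezf2-positive cells made up 50.2% ± 39.8 (SD, n = 44) in SN and 45.9% ± 31.4 (n = 22) in N clones, a difference of 4.21 percentage points (permutation p = 0.666). The Tbr1-only share was 12.7% ± 23.4 against 9.56% ± 16.2, a difference of 3.10 points (permutation p = 0.588). Of members alone, Fezf2-positive cells were 77.8% ± 36.3 (n = 35) in SN and 84.9% ± 21.4 (n = 17) in N clones (permutation p = 0.457), and all 3 adjusted p-values were 0.666. Within plates 1, 2 and 3 the first difference was 0.968, 5.29 and -0.444 points, the second 1.73, 14.3 and -9.50 points and the third -5.33, -30.0 and 9.09 points (permutation p from 0.253 to 0.994).

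Gene levels were compared as sums over the cells of a clone in each group, which gave 46 Fezf2-positive sums (92 cells, 142741 to 26967142 exon counts) and 15 Tbr1-only sums (19 cells, 139907 to 8367153), 11 of the latter from 1 cell. With plate as a term, edgeR's quasi-likelihood test found 402 of 11081 genes (3.63%) higher in Fezf2-positive sums and 4 (0.0361%) higher in Tbr1-only sums at an adjusted p under 0.05. At an unadjusted p under 0.05 the counts were 1589 (14.3%) and 80 (0.722%). The whole set of genes was shifted the same way: the median log2 difference over all genes was 0.56 (0.16 with DESeq2's size factors, which gave 329 and 29 calls), and 73.4% of genes lay above 0. The filter on low counts asked for a CPM above a limit, and not only a count, in about 13.5 sums. A gene seen in the Tbr1-only group alone could thus pass it only if it exceeded the limit in nearly all 15. Without the filter the calls were 5418 and 856. An interaction of group and clone type passed for 93 of 16730 genes (0.556%), with 4 Tbr1-only sums on the N side.

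The 402 genes were mostly genes of low level that were counted in few Tbr1-only sums. Of them, 88 (21.9%) had no count in any Tbr1-only sum, against 0.794% of all genes tested. These 88 were all the tested genes without a Tbr1-only count, so each such gene was called. A count in 3 or fewer of 15 was found for 319 of the 402 (79.4%), against 18.8% of all genes tested. The mean level of the 402 genes had a median of 10.5 CPM, against 29.5 CPM for all genes tested. With each cell thinned to 200000 counts, 31 of 5033 genes were called, all higher in the Fezf2-positive sums, and 24 of the 44 earlier calls that could be tested again were among them. With log10 depth as a covariate 2.38% and 0.0361% of the same genes were called, and 97.8% of these calls were among the 406. The fit with clone as the replicate block, in the 10 clones with a sum of each group, called 21 of 6173 genes, all higher in Fezf2-positive sums. Of the 406 calls 35 could be tested there, and 1 was called.

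The genes of smallest p were enzymes and cell maintenance factors of several kinds, and none of them is on the lists of neuronal identity. Ggct, an enzyme of glutathione breakdown, ran from 0 to 546 CPM (median 39.4) in the 46 Fezf2-positive sums and was counted in 34. It was at 0 in 14 of the 15 Tbr1-only sums and at 4.06 CPM in the other, so the groups overlapped only at 0 to 4.06 CPM (log2 difference 8.45 ± 1.43 SE, edgeR adjusted p = 0.000489). Xrcc1, a scaffold of single-strand DNA break repair, had medians of 21.5 and 0 CPM and was counted in 38 of 46 and 2 of 15 sums (log2 7.49 ± 1.29, edgeR adjusted p = 0.000489). Atl2, a GTPase that fuses tubules of the endoplasmic reticulum, had medians of 34.0 and 0 CPM, with counts in 38 of 46 and 7 of 15 sums and no Tbr1-only sum above 1.26 CPM (log2 6.60 ± 1.18, adjusted p = 0.000925).

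These 3 genes kept an edgeR adjusted p under 0.05 in the thinned fit (0.000232 for Ggct, 0.0017 for Xrcc1 and 0.000232 for Atl2) and with depth as a covariate (0.00118, 0.00126 and 0.00126). The same kind of filter chose the genes of those fits from the same cells, so they are no separate support. None of the 3 had a result in the fit with the replicate block. In clones with a sum of each group, Ggct was higher on the Fezf2-positive side in 6 of 10 and lower in 0, Xrcc1 higher in 9 and lower in 0, and Atl2 higher in 8 and lower in 1. Spryd3, whose function is little known, had medians of 26.9 and 0 CPM (log2 6.63 ± 1.30, edgeR adjusted p = 0.00204) and was higher in all 10. Such clone counts, here and for the genes below, come from the same sums as the tests. They are a description and no separate support. With sums of any depth Spryd3 was not called (log2 3.11, edgeR adjusted p = 0.113), nor was it on plate 1 (0.0520). All of these levels are read counts of sparse genes, and 1 count can stand for several copies of 1 molecule.

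A gene at or near 0 in the Tbr1-only sums could pass the filter through the Fezf2-positive sums alone, and the reverse could hardly pass, so the sizes of these differences are a description. The other genes at the head of the list had between 0 and 4 reads in all Tbr1-only sums together. Fig4, a phosphoinositide phosphatase, and Ampd2, an AMP deaminase, had 0, and their pooled levels of 18.3 and 13.1 CPM in the Fezf2-positive sums were at least 227.7-fold and at least 163.2-fold higher than 3 counts over the Tbr1-only group. Aldh5a1, which breaks down the GABA metabolite succinic semialdehyde, had 2 reads, a ratio of 228.2 (95% counting interval 63.1 to 1885). The interval covers counting error of pooled reads only and leaves out the spread between clones. Rnf149, Plpp1 and Tada1, a ubiquitin ligase, a lipid phosphatase and a subunit of the SAGA coactivator, had 1 read each. Sharpin and Slc7a14, a ubiquitin chain assembly factor and a lysosomal transporter, had 4 each. None of the 8 was tested in the thinned fit.

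Each of the 4 genes higher in the Tbr1-only sums lost its call without 1 clone or another. Gjd2, the gap junction protein connexin 36 of neurons, had a count in 4 of 15 Tbr1-only sums, up to 533 CPM, and in 11 of 46 Fezf2-positive sums, up to 59.3 CPM, with medians of 0 in both (log2 -5.98 ± 1.32, edgeR adjusted p = 0.00384). Without clone 62 its adjusted p was 0.167. Akna, a centrosome protein that organises microtubules, had a count in 7 of 15 and 19 of 46 sums (log2 -4.64 ± 1.18, edgeR adjusted p = 0.00995, 0.119 without clone 4). Cep85l, another centrosome protein, was counted in 10 of 15 and 36 of 46 sums and had medians of 7.35 and 9.09 CPM with the higher one in the Fezf2-positive sums, although its fitted log2 difference was -2.71 ± 0.84 (edgeR adjusted p = 0.0496, lost without clone 3, 16, 39, 57 or 62, up to 0.186). The gene model Gm11168 was counted in 9 of 15 and 29 of 46 sums and stood at 6.26 ± 11.4 against 1.33 ± 2.15 CPM (log2 -3.46 ± 0.86, edgeR adjusted p = 0.00866, 0.0597 without clone 17). With depth as a covariate Gjd2 (0.161) and Cep85l (0.523) were not called.

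**Figure D4:**
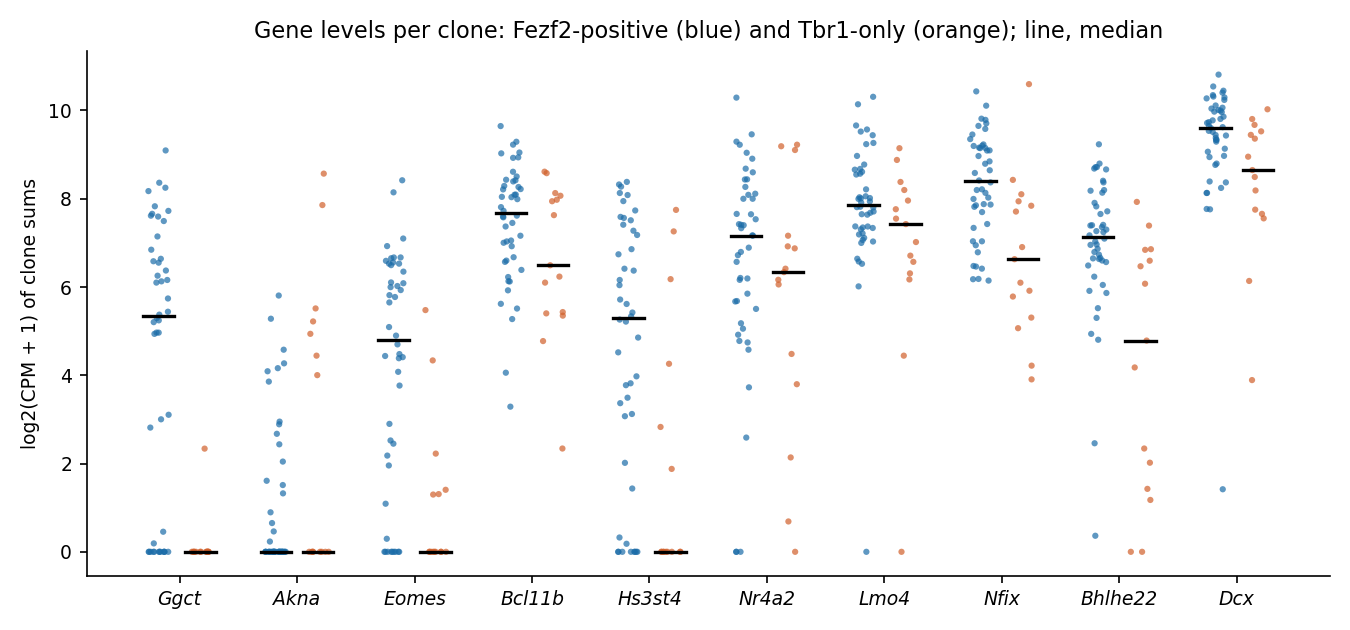
Levels per clone sum as log2(CPM + 1) for 10 genes, 46 Fezf2-positive sums in blue and 15 Tbr1-only sums in orange, with a line at each median. Ggct and Eomes lie at 0 in most Tbr1-only sums, while the ranges of Bcl11b, Nr4a2, Lmo4, Nfix and Dcx overlap, with 7 of the 15 Tbr1-only sums of Nfix below its lowest Fezf2-positive sum.

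Genes of cortical identity missed the threshold with 1 exception in edgeR, a count that depended on the tool. Of the 180 genes that could be tested from 19 lists of layers, fate, maturation, progenitors and other cell types, 1, Eomes, passed, a share below the 3.63% of all genes tested. With limma-voom, which called 22.6% of all genes, 28 of the 180 passed, and with each cell weighed equally in limma, which called 19.8%, 24 passed, all of them higher in Fezf2-positive sums. DESeq2, which called 8.19% of all genes, gave no result for some of the 180. Of those with a result it called 4 higher in Fezf2-positive sums and 1 lower. The standard errors of the 180 log2 differences had a median of 0.85 in edgeR, so a gene that missed the threshold is not shown to be equal in both groups. Eomes, the T-box factor of intermediate progenitors that precedes Tbr1 in newborn neurons, stood at 52.7 ± 69.03 CPM (SD, 37 of 46 sums with a count) against 4.73 ± 11.8 CPM (6 of 15). Its medians were 26.9 and 0 CPM, and it was higher on the Fezf2-positive side in 9 of 10 clones with both groups (log2 3.54 ± 1.09, edgeR adjusted p = 0.0481). The call was near the limit: the adjusted p was 0.0946 in the thinned fit, 0.0748 with depth as a covariate, 0.127 with the replicate block and above 0.05 without any 1 of 9 of the 11 clones that hold 4 or more members (highest 0.0675).

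None of the 13 tested layer 5 genes passed in edgeR, though 12 had differences above 0. Their median log2 difference was 1.31, against 0.56 for all genes (0.54 for the 6 that could be tested in the thinned fit, against 0.36 for all). Limma-voom and equal weight per cell each called 2 of the 13 higher in Fezf2-positive sums, where 22.6% and 19.8% of all genes were called. DESeq2 called 0 of 13. Bcl11b, the zinc finger factor downstream of Fezf2 in subcerebral neurons, was counted in every sum: 8.77 to 801 CPM (median 203.05) in the Fezf2-positive and 4.07 to 391 CPM (median 89.1) in the Tbr1-only sums. The ranges overlap over most of their length, and it was higher on the Fezf2-positive side in 8 of 10 clones with both groups (log2 0.83 ± 0.40, edgeR adjusted p = 0.308). Pou3f1 (14.2 ± 21.7 against 4.29 ± 8.64 CPM), Crym (76.3 ± 192.1 against 17.9 ± 56.2), Crim1 (67.2 ± 72.1 against 23.5 ± 30.7) and Ldb2 (35.5 ± 51.6 against 9.94 ± 21.4), known from corticospinal neurons, had higher means in the Fezf2-positive sums and edgeR adjusted p-values from 0.407 to 0.469.

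Layer 6 genes, whose neurons depend on Tbr1, gave no call in either direction in edgeR. None of 11 passed, 8 lay above 0 and the median log2 difference was 0.29. Hs3st4, an enzyme of heparan sulfate marking corticothalamic neurons, had medians of 38.4 and 0 CPM (log2 1.77 ± 1.03, edgeR adjusted p = 0.432). Tle4, a corepressor of the same neurons, was counted in 45 of 46 and 8 of 15 sums, with medians of 57.4 and 0.972 CPM (log2 0.75 ± 0.74, adjusted p = 0.695). With limma-voom, which called 22.6% of all genes, 4 of the 11 were called higher in Fezf2-positive sums. Among them were Tle4 (log2 3.54, limma-voom adjusted p = 0.00334), Hs3st4 (3.60, 0.0174) and Lmo3 (2.65, 0.00988). These 3 also passed with each cell weighed equally in limma, where 19.8% of all genes were called (adjusted p from 0.00465 to 0.0354). In edgeR the differences were 0.98 ± 0.70 for Lmo3, 1.71 ± 1.34 for Ntsr1 and -0.33 ± 0.41 for Nfia (edgeR adjusted p from 0.548 to 0.779). Foxp2 and Sox5, named here after their values were seen, had medians of 0.536 and 1.08 CPM and of 107.2 and 108.1 CPM.

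Of the 12 subplate genes only 5 were tested and none passed in edgeR. DESeq2, which called 8.19% of all genes, called 1 of the 5 higher in Fezf2-positive sums. With sums of any depth, where 4.18% of all genes were called, edgeR also called 1 of the 5. Limma-voom and equal weight per cell called 0. Nr4a2, an orphan nuclear receptor of subplate and layer 6 cells, ran from 0 to 1252 CPM (median 142.7) in Fezf2-positive and from 0 to 597 CPM (median 79.9) in Tbr1-only sums, with a log2 difference of 0.30 ± 0.57 that turned to -0.08 with DESeq2's size factors. St18 (18.5 ± 42.6 against 2.14 ± 7.21 CPM, edgeR adjusted p = 0.0955) and Tmem178 (24.1 ± 34.0 against 11.8 ± 37.0, adjusted p = 0.623) had higher means in Fezf2-positive sums. Kcnab1, a potassium channel subunit, had the higher mean in Tbr1-only sums (28.7 ± 66.7 against 5.29 ± 13.6 CPM, adjusted p = 0.259).

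Upper-layer and callosal genes gave 0 calls among 14 in edgeR, with 8 above 0 and a median of 0.36. Limma-voom, which called 22.6% of all genes, called 1 of the 14 higher in Fezf2-positive sums. Equal weight per cell and DESeq2 called 0 of 14. Plxnd1, a semaphorin receptor, had medians of 83.6 and 11.1 CPM and was higher on the Fezf2-positive side in 9 of 10 clones (log2 2.06 ± 0.82, adjusted p = 0.171). Lmo4, a LIM-domain cofactor, had medians of 232.3 and 170.95 CPM (log2 1.06 ± 0.44, adjusted p = 0.201). Pou3f3, Rorb and Epha3 had differences of 1.02 ± 0.57, 1.28 ± 1.07 and 1.00 ± 0.97 (edgeR adjusted p from 0.411 to 0.688).

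**Figure D5:**
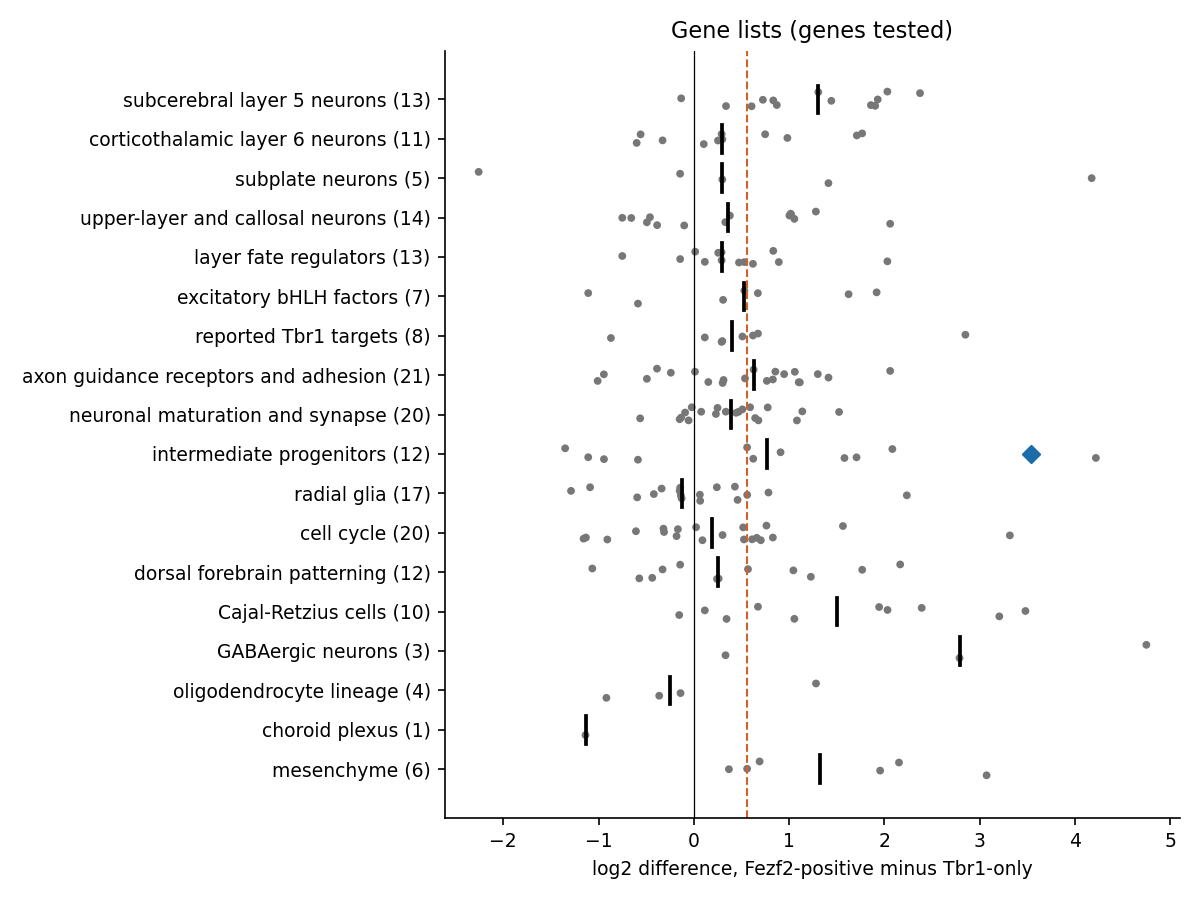
Log2 difference of each tested list gene (points), with the list's median (black bar), the median of all 11081 genes (orange dashed line at 0.56) and Eomes as the blue diamond. The lists of layers 5 and 6, subplate, upper layers, fate and maturation hold no gene past the threshold in edgeR.

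Factors that set layer and neuronal fate were near the shift of all genes. All 13 fate regulators were tested and none passed in edgeR, with a median of 0.29. Limma-voom called 1 of the 13 higher in Fezf2-positive sums, and equal weight per cell called 0. Sox11, a SOXC factor of new neurons, had medians of 2694 and 1467 CPM, in ranges that overlapped (log2 0.47 ± 0.24, edgeR adjusted p = 0.349, and -0.03 with DESeq2's size factors). Tcf4, the partner of neuronal bHLH factors, stood at 641 ± 345 against 441 ± 278.3 CPM (log2 0.53 ± 0.29, adjusted p = 0.385). None of the 7 tested bHLH genes passed in edgeR. Limma-voom and equal weight per cell each called 3 of the 7 higher in Fezf2-positive sums, where 22.6% and 19.8% of all genes were called. DESeq2 called 0 of 6. Bhlhe22, a bHLH repressor needed for corticospinal axons, had medians of 139.4 and 26.6 CPM and was higher in 8 of 10 clones (log2 1.63 ± 0.56, edgeR adjusted p = 0.0965). Neurod1 had medians of 40.6 and 3.51 CPM (log2 1.92 ± 0.86, adjusted p = 0.26).

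Reported targets of Tbr1 gave 0 calls among 8 in edgeR, with a median of 0.41. Limma-voom, which called 22.6% of all genes, called 2 of the 8 higher in Fezf2-positive sums. Equal weight per cell and DESeq2 called 0 of 8. Auts2, a neurodevelopmental regulator that TBR1 activates, ran from 0.532 to 1562 CPM and from 0 to 1190 CPM, with medians of 418 and 230 CPM (log2 0.62 ± 0.47, edgeR adjusted p = 0.576). Cdh8, a cadherin, had means of 15.4 ± 22.6 and 2.67 ± 7.86 CPM (log2 2.85 ± 1.26, adjusted p = 0.249). Reln, the secreted guide of migrating neurons, was counted in 44 of 46 and 10 of 15 sums, with medians of 113.6 and 15.4 CPM and an adjusted p of 0.757; it was named after its values were seen.

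Genes of neuronal maturation were high in both groups, and levels of guidance receptors varied. None of 21 guidance genes and none of 20 maturation genes passed in edgeR, with medians of 0.63 and 0.39. Limma-voom, which called 22.6% of all genes, called 10 and 5 of them higher in Fezf2-positive sums. With each cell weighed equally, where 19.8% of all genes were called, the counts were 7 and 3. DESeq2 called 0 of 20 guidance and 0 of 20 maturation genes. Nrp1, a semaphorin receptor, had medians of 250.1 and 81.9 CPM (log2 1.41 ± 0.63, edgeR adjusted p = 0.253), and Robo1, a Slit receptor, 72.2 and 9.62 CPM (log2 1.30 ± 0.75, adjusted p = 0.431). The microtubule proteins Dcx and Mapt had medians of 782 and 401 CPM and of 1618 and 1080 CPM, and the growth cone protein Gap43 had 1208 and 1006 CPM. Their log2 differences were 0.78 ± 0.34, 0.59 ± 0.28 and 0.64 ± 0.29 (edgeR adjusted p from 0.237 to 0.304), all close to the shift of 0.56. Summed over the maturation list, levels ran from 5904 to 25073 CPM in Fezf2-positive sums and from 6145 to 21480 CPM in Tbr1-only sums, so both groups carry the RNA of neurons.

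Both groups also carried progenitor RNA. The 17 radial glia genes summed to a median of 2908 CPM (772 to 14827) in Fezf2-positive and 2741 CPM (1223 to 16563) in Tbr1-only sums, and the 20 cell cycle genes to 728 CPM (121.1 to 2131) and 1078 CPM (0 to 2598). None of either list passed in edgeR, with median differences of -0.13 and 0.20. Equal weight per cell, which called 19.8% of all genes, called 1 gene of each list higher in Fezf2-positive sums. Limma-voom and DESeq2 called 0 of both. Tnc had medians of 14.0 and 0 CPM, and Pax6, a radial glia factor, 14.8 and 5.56 CPM. Pax6 had the higher mean in Tbr1-only sums, 66.1 ± 96.5 against 21.5 ± 24.5 CPM (edgeR adjusted p = 0.486). Mki67, a marker of dividing cells, was counted in 32 of 46 and 10 of 15 sums (97.9 ± 161.7 against 254.4 ± 505 CPM, adjusted p = 0.561), and Mcm2 in 31 and 3 (adjusted p = 0.163). Besides Eomes, the intermediate progenitor genes Sstr2 (10.8 ± 20.7 against 0.654 ± 2.18 CPM, adjusted p = 0.113) and Insm1 (58.6 ± 78.7 against 111.96 ± 227.7, adjusted p = 0.478) did not pass in edgeR. The part that progenitor RNA has in the differences was not tested.

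Genes of dorsal forebrain patterning gave 0 calls among 12 in edgeR. Limma-voom called 1 and equal weight per cell 2 of the 12 higher in Fezf2-positive sums, where 22.6% and 19.8% of all genes were called. DESeq2 called 0 of 11. Nfix, a nuclear factor I gene, was counted in every sum, with medians of 335 and 98.1 CPM and ranges of 69.8 to 1381 and 14.0 to 1548 CPM (log2 1.23 ± 0.41, edgeR adjusted p = 0.078). Zbtb20 (508 ± 696 against 208.5 ± 182.7 CPM, adjusted p = 0.393) and Lhx9 (7.17 ± 15.6 against 1.88 ± 4.23, adjusted p = 0.467) did not pass in edgeR. Emx1, the gene that drives the Cre, was counted in 33 of 46 and 8 of 15 sums, at 17.4 ± 39.6 and 35.6 ± 55.0 CPM (log2 -1.07 ± 0.93, adjusted p = 0.643).

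Lists of other cell types had low medians and high values in single sums. The Cajal-Retzius list summed to a median of 218.1 CPM (9.05 to 4007) in Fezf2-positive and 123.4 CPM (1.32 to 830) in Tbr1-only sums; 9 of its 10 genes lay above 0 with a median of 1.50, and none passed, Lhx1, Lhx5 and Calb2 having edgeR adjusted p-values from 0.257 to 0.384. The GABAergic list had medians of 26.0 CPM (0 to 459) and 1.79 CPM (0 to 354). Its member Gad2, the enzyme that makes GABA, was counted in 24 of 46 and 4 of 15 sums. Gad2 stood at 14.5 ± 37.8 against 0.893 ± 1.86 CPM (edgeR adjusted p = 0.0583). DESeq2, which called 8.19% of all genes, called 2 of the 2 GABAergic genes with a result higher in Fezf2-positive sums. Limma-voom and equal weight per cell called 0 of 3. The choroid plexus list had medians of 0.564 and 0 CPM and reached 721 CPM in a Fezf2-positive and 3383 CPM in a Tbr1-only sum, both of clone 17 and both nearly all Ttr, while the next Tbr1-only sum had 74.4 CPM. The oligodendrocyte list had medians of 51.5 and 40.3 CPM (highest 826 and 502), mesenchyme 62.1 and 9.75 CPM (577 and 309.6), and microglia and endothelium 4.73 and 0.581 CPM (359 and 56.4). Lhx6, Kcne2, Folr1, Kl, Cx3cr1, C1qb and Aif1 were at 0 in every Tbr1-only sum. Olig2 (adjusted p = 0.681), Ttr (0.756) and Lum (0.403) did not pass in edgeR, and the part of such RNA in the results was not tested.

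On intron counts of the same sums, 586 of 9497 genes (6.17%) were higher in Fezf2-positive sums and 62 (0.653%) in Tbr1-only sums by edgeR, a share of 90.4% on the Fezf2-positive side that was 72.1% with DESeq2 (915 and 354 calls). With the replicate block 0 of 3986 genes were called (512 and 3 at an unadjusted p under 0.05). Hspa12a, an atypical heat shock protein of neurons, had a median of 33.1 intron CPM against 0, with a count in 39 of 46 and 7 of 15 sums (log2 5.54 ± 1.13, edgeR adjusted p = 0.00387). Msh6, of DNA mismatch repair, was counted in 30 of 46 and 2 of 15 sums, with 2 reads in the Tbr1-only group (ratio 296, 95% counting interval 81.9 to 2443). This interval too leaves out the spread between clones. On the other side, Rmst, a long noncoding RNA of neural differentiation, had a mean of 1068 ± 3047 against 51.7 ± 92.3 intron CPM, but medians of 0 and 8.15 (log2 -4.78 ± 1.04, adjusted p = 0.00435), so single sums up to 11834 CPM carry it. Mir124-2hg, the host of a neuronal microRNA, had a count in 3 of 15 and 27 of 46 sums and the same form of difference (log2 -4.73 ± 1.11, adjusted p = 0.0065).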

How the data were processed

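The authors deposited whole-number counts of exon reads and, apart, of intron reads for 55359 Ensembl IDs in 287 libraries of 1 cell each. Of these, 284 had a clone label, 247 passed the limit of 1000 genes, 182 were Neurod6-positive and 116 were members. Per the submitters' processing notes STAR 2.7.9a, R 4.4.0 and the build GRCm39 were used; the counting tool, annotation, strand setting and use of molecular identifiers are not given in the sources used here, so reads of overlapping or near-identical genes may be shared. Symbols matched 52083 IDs. The most counted ID without a symbol held a median of 12.0% of exon counts in Fezf2-positive cells (highest 72.1%). In Tbr1-only cells its median was 13.8% (highest 64.4%). It is part of the cell total behind each CPM of the rule. No annotation of that build was used, so no coordinates are given. No doublet caller was run, since cells were drawn one at a time.

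The members and the gene lists were chosen with earlier results of these data known. Exon or intron counts of member cells were summed per clone and group, keeping sums of at least 100000 exon (50000 intron) counts; clone 45, labelled on plates 2 and 3, was put on plate 3. Sums were tested with edgeR 4.0.16 (R 4.3.3): TMM scaling, filterByExpr, glmQLFit and glmQLFTest with plate, and Benjamini-Hochberg adjustment over all genes tested, threshold 0.05. Fezf2, Tbr1 and Neurod6 stayed in the fits and in this adjustment. They were left out of the counts of genes tested and called, and no test result is given for them. Standard errors were taken as the absolute log2 difference divided by the root of the F statistic. Named are, per direction, up to 12 called genes in order of p that were counted in at least 10 cells, and of the lists the 3 to 5 members of smallest p (fewer where less informative), apart from genes marked as chosen after their values were seen. Of the 12 intron genes a side, 2 are described. Shares, depth and colour were compared by two-sided permutation tests over clones (100000 resamples, scipy 1.17.1; exact for the 10 or 14 paired clones). The edgeR step was tested on simulated data. Alternatives used DESeq2 1.42.0, limma 3.58.1, other filters, thresholds, plates, clone types and left-out clones.

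Both groups share clone labels, which gives the pairing. Deviations of the 2 sums of a clone correlated at 0.0079 to 0.0909 in the 10 clones with both, and 6 of 10 correlated best with their own clone. No 2 kept cells correlated above 0.888, so none was treated as a copy.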

Additional observations from a re-analysis of the deposited data

Results flagged for a closer look

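The difference between the groups was also compared between SN and N clones, as an interaction of group and clone type in edgeR's quasi-likelihood test. It passed the threshold for 93 of 16730 genes (0.556%). The N side had 4 Tbr1-only sums and the SN side 11, so a few libraries set these values, and with sums of any depth 1.91% of genes passed.

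Ahcyl2 had an interaction of 10.58 ± 1.92 (edgeR adjusted p = 0.00263): it was counted in 1 of 11 Tbr1-only sums of SN clones (0.16 CPM on average) and in 4 of 4 of N clones (240.1 CPM, of which 1 sum had 956). Il20rb (18.08 ± 3.58, edgeR adjusted p = 0.0103) and Abhd11os (12.43 ± 2.54, adjusted p = 0.0131) each had counts in 1 Tbr1-only sum in all. In the other direction stood Commd6 (-11.06 ± 2.04, edgeR adjusted p = 0.00291), counted in 10 of 11 Tbr1-only sums of SN clones and 1 of 4 of N clones. Emc8 (-11.74 ± 2.32, edgeR adjusted p = 0.00994) and Bhlhb9 (-13.09 ± 2.72, adjusted p = 0.0131) were each counted in 7 of 11 and 0 of 4. These fitted values depend on the zeros and are no measure of size.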

How the results depend on the processing

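The 406 exon calls depend on tool, filter and depth. As a share of the genes each setting tested, they were 3.66%. The share was 8.19% with DESeq2 (907 genes), 22.6% with limma-voom (2504), 19.8% with each cell weighed equally (2198) and 17.0% with no low-count filter (6274). It was 5.21% and 1.06% with Fezf2 of at least 10 and 50 CPM, 1.36% with Fezf2-positive cells that also had 20 CPM of Tbr1, 0.140% with sums of 2 or more cells, 2.29% in SN and 0.0300% in N clones, and 5.85%, 0% and 0% on plates 1, 2 and 3. At an unadjusted p under 0.05, edgeR gave 8.01% and 25.0% of genes higher in Fezf2-positive sums and 0.879% and 1.95% lower on plates 2 and 3, which had 3 and 4 Tbr1-only sums. Settings added after the data were seen gave 0.616% (thinned) and 2.42% (depth covariate). Leaving out each of the 11 clones with 4 or more members gave 3.24% to 4.70% (355 to 528 genes). With clone as the replicate block 21 exon and 0 intron genes were called; these are 0.340% and 0% of genes. The same 10 clones with no replicate block gave 0 exon calls (4.39% and 0.211% at an unadjusted p under 0.05), and over all genes the log2 difference had a median of 2.42 with the block and 0.44 without. Intron calls, 6.82% (648), became 13.4% with DESeq2 and 17.4% with no filter, and the calls by clone type rose from 0.556% to 1.91% with sums of any depth. The cause of these changes was not tested. The paired tests of depth and genes kept the call and direction of the unpaired ones.

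Shares by clone type, not called in any setting, changed sign: the SN minus N difference in Fezf2-positive share was -3.08 points with 2000 genes, -2.53 and -0.969 with Fezf2 of at least 10 and 50 CPM, -7.54 in clones with 2 Neurod6-positive cells and -2.05 with 1000000 counts, and the Tbr1-only share -3.07 after thinning. The colour difference became -4.44 points with cells of at least 200000 counts, where 9 instead of 14 clones held both groups.

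Single genes kept direction and side of the threshold in 1923 comparisons (90.8%), lost the threshold in 5.14%, gained it in 39 and changed sign in 48. The last are given as log2 values. With the replicate block Nfia was 0.29, Insm1 0.31, Mki67 2.07, Emx1 0.42 and Rmst introns 0.69, and without it in the same clones Nrp1 -0.20 and Zbtb20 -0.16. Nr4a2 and Sox11 were -0.0799 and -0.0260 with DESeq2's size factors and -0.0801 and -0.0261 with DESeq2, and Nr4a2 was -0.23 with depth as a covariate. With limma-voom Nfia was 0.21 and Insm1 1.36, and with equal weight Insm1 1.05 and Pax6 0.0890. In sums of 2 or more cells Cep85l was 0.77, Ntsr1 -1.51, Tle4 -0.19, Tmem178 -0.81, Auts2 -0.34 and Ttr 1.66. With membership by a total without mitochondrial genes and the most counted ID without a symbol, Ntsr1 was -0.46 and Tle4 -0.41. Against Fezf2-positive cells with Tbr1, Olig2 was -2.92. Plate 2 gave Gjd2 8.65, Tle4 -0.81, Nfia 0.22, Nr4a2 -0.40, Plxnd1 -0.25, Robo1 -0.64, Insm1 7.50, Tnc -0.16, Lhx5 -0.80, Olig2 -0.27, Ttr 1.15 and Lum -0.61. Plate 3 gave Lmo3 -0.43, Ntsr1 -0.81, Pax6 0.15 and Nfix -0.15. N clones gave Cep85l 0.67, Ntsr1 -1.53, Gap43 -0.31, Pax6 0.0854, Mki67 0.53 and Lum -2.43. Over the left-out clones Ttr ran from -1.53 to 1.81, the latter without clone 17.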

Other observations

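Of the 3 cells without a clone label, which entered no comparison, cell 1 had 106.5 CPM of Neurod6, 188.8 CPM of Fezf2 and 14.2 CPM of Tbr1 (1689914 exon counts, 4954 genes). Cell 2 had 305 CPM of Neurod6, 74.8 CPM of Fezf2 and 3.01 CPM of Tbr1 (5976683 exon counts, 13298 genes). By its levels each would meet the thresholds of a Fezf2-positive cell. Cell 3 had 2257 exon counts and none of the 3 genes.

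With the rule applied again after thinning to 100000 counts, 82 of 86 Fezf2-positive cells and 15 of 18 Tbr1-only cells kept their group, and 1 Fezf2-positive cell became Tbr1-only. Of the 64 cells in neither group, 10 became Fezf2-positive and 7 Tbr1-only.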
